A study of Danio rerio with 6 samples.

Results

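The genes described here carry the DNA damage checkpoint that ends in p53 and its relatives, as counted in the ovaries of zebrafish, either wild-type (WT) or mutant for ddx4-L. The names tp63, mdm2, cdkn1a, ccng1, chek1, chek2, atm, atr and gadd45aa were looked up by symbol in the deposited gene table. Of these 9 names, 8 gave 1 gene each. The symbol gadd45aa has no row of its own, and the symbol GADD45A without the final letter belongs to 2 genes, so both were kept and which of them is gadd45aa was not settled. This gave 10 genes of the 32519 in the table. The members were named without use of their counts, but with earlier results of these data known.

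When DNA breaks or replication stalls, the kinases Atm and Atr sense the damage and activate the checkpoint kinases Chek2 and Chek1. These stop the cell cycle and stabilise p53, which Mdm2 otherwise marks for degradation. Active p53 switches on genes such as cdkn1a, ccng1, gadd45a and mdm2 itself, which closes a negative feedback loop. In mouse oocytes the p53 relative p63, which Chek2 activates, decides whether an oocyte with broken DNA dies, and in zebrafish loss of p53 is known to let gonads with some DNA repair defects stay female.

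RNA of whole ovaries was sequenced at 6 months post-fertilization (mpf), from WT females (3 libraries) and ddx4-L mutant females (3 libraries). The mutant line, which the labels write as ddx4E4Δ, was made with CRISPR-Cas9 and lacks a few bases of an alternative ddx4 exon, the one in the ovary-biased transcript. The labels do not give the sibship of the fish or the number of ovaries behind a library, so p values measure the spread between these libraries. An ovary mixes oocytes of many stages with follicle, stroma, blood and immune cells, and in such bulk tissue fewer cells of a type and less RNA per cell cannot be told apart. Oocyte genes were abundant in each library, with the 14 growing oocyte markers summing to 22996 to 23186 CPM in WT and 16956 to 22935 CPM in mutant ovaries. Each mutant sum lay below each WT sum, in mutant replicate 3 by a small margin (two-sided exact permutation test, n = 3, p = 0.1). A single abundant gene weighs much in these sums, zp2.2, with means of 6412 CPM in WT and 4013 CPM in mutant ovaries. The most abundant marker, zp2.1, was at 7494 and 7495 CPM. Of the 14 markers 6 were higher and 8 lower in the mutant, so the sums do not show a fall of the list as a whole. CPM gives counts in proportion to the total of the library, with the totals scaled by TMM. Depth, the sum of a library's column, ran from 76520483 to 86263179 counts and did not separate WT from mutant (two-sided exact permutation test, n = 3, p = 0.6, where 0.1 is the smallest p that this design allows). Because 4 was the commonest value above 0 in every library, a single fragment may stand for about 4 counts, and up to 12 counts (0.142 to 0.161 CPM) were read as not distinguishable from 0.

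All 10 genes passed the filter on low counts and were tested among 19353 genes with edgeR's quasi-likelihood test and Benjamini-Hochberg adjustment over all genes tested. A gene was called when its adjusted p was under 0.05. SE stands for the standard error of a log2 fold change, CI for its confidence interval, and SD for the spread between libraries. None of the 10 was called, against 4.57% of all genes tested (1.96% higher and 2.61% lower in the mutant, and 3.11% with a log2 fold change of at least 1 in size). DESeq2 also called 0 of them, against 11.1% of the genes to which it gave an adjusted p. At an unadjusted p under 0.05, 2 of the 10 remained (cdkn1a and ccng1, both higher in the mutant), and 19.9% of all genes did. In 2 of the 10, ccng1 higher and chek1 lower in the mutant, CPM did not overlap between WT and mutant, against 28.4% of all genes (14.3% higher and 14% lower). Both shares were near or below the background. The median log2 fold change of the 10 genes was 0.06, beside 0.014 over all genes tested, with 7 genes higher and 3 lower in the mutant.

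**Figure D1:**
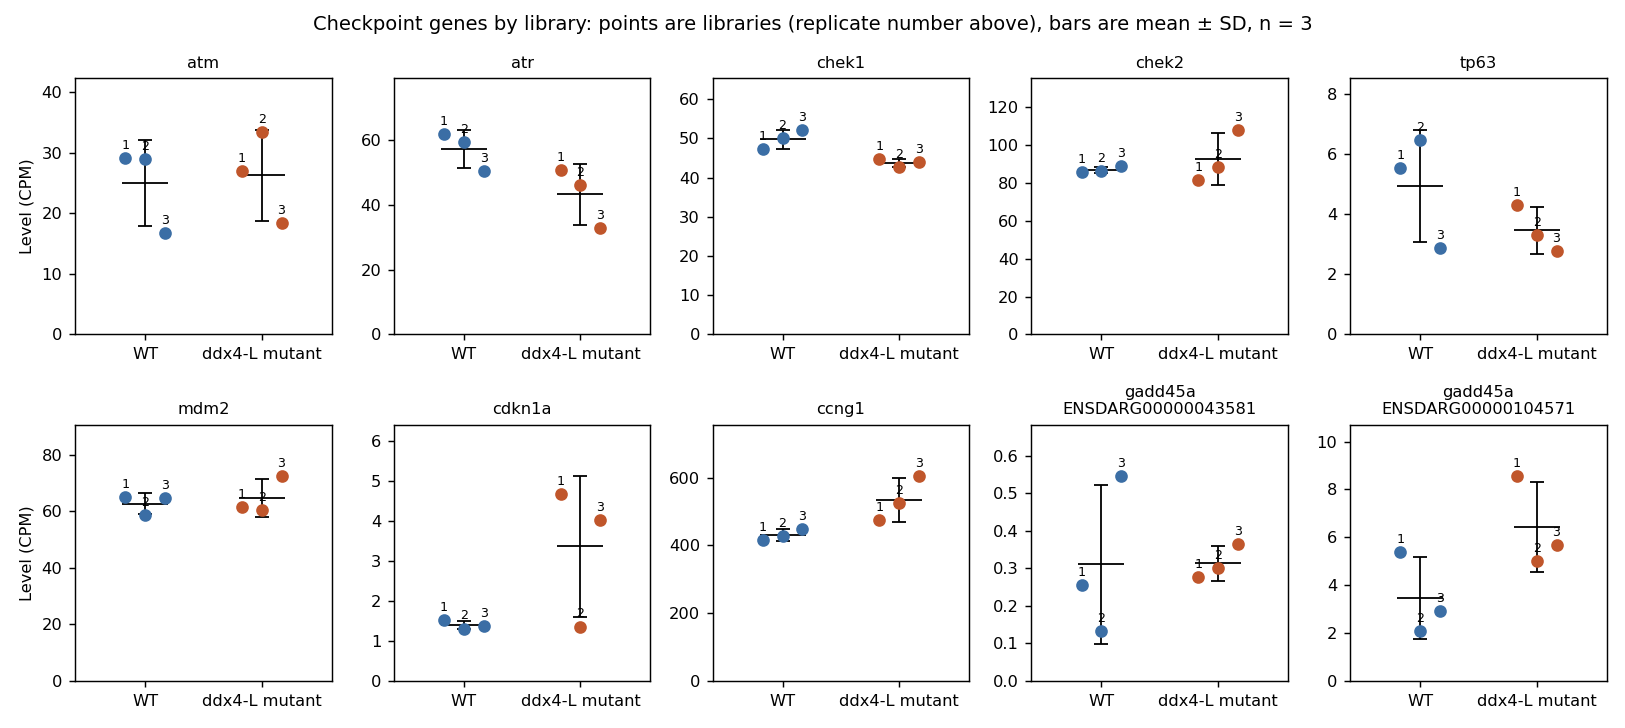
Level in CPM of each of the 10 checkpoint genes (vertical axes start at 0) in the 3 WT libraries (blue) and the 3 ddx4-L mutant libraries (orange), with the replicate number above each point and the mean ± SD as black bars. In cdkn1a mutant replicates 1 and 3 stand at 4.68 and 4.02 CPM and replicate 2 lies among the WT libraries at 1.36 CPM, while the points of the genotypes are apart only in ccng1 and chek1.

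The kinase gene atm (ENSDARG00000002385), whose product responds to double-strand breaks, had 29.1, 29.0 and 16.8 CPM in WT replicates 1, 2 and 3 and 27.0, 33.4 and 18.4 CPM in mutant replicates 1, 2 and 3. The lowest library of each genotype was replicate 3, and the genotypes overlapped. The log2 fold change was 0.07 (SE 0.28, 95% CI -0.59 to 0.73, edgeR adjusted p = 0.92). Its relative atr (ENSDARG00000079625), which responds to single-stranded DNA at stalled forks, had 61.9, 59.2 and 50.5 CPM in WT and 50.7, 46.0 and 32.7 CPM in mutant ovaries. The highest mutant library lay just above the lowest WT library. The log2 fold change of atr was -0.41 (SE 0.17, 95% CI -0.81 to 0.00, edgeR adjusted p = 0.25), and without mutant replicate 3 it was -0.24.

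Mutant replicate 3 was also low for other kinases of the family of atm and atr, the PI3-kinase-related kinases, which are very large proteins. Of the 6 kinases, 5 had their lowest level of all libraries there, and atm, the exception, was lower in WT replicate 3. Relative to the WT mean of each gene, the levels in mutant replicate 3 were 73.8% for atm, 57.2% for atr, 48.4% for prkdc (DNA-dependent protein kinase), 62.8% for mtor (growth control), 49.6% for smg1 (nonsense-mediated decay) and 61.7% for trrap (a scaffold of histone acetyltransferases). In mutant replicates 1 and 2 the 6 genes lay between 80.5% and 134%. None of the 6 was called, 0 had an unadjusted p under 0.05 with edgeR and DESeq2 called 0. Their median log2 fold change was -0.19, and without mutant replicate 3 it was 0.05. Low levels in mutant replicate 3 were not confined to this family. The genes listed as CREBBP and EP300, counted among the regulators of p53, were also lowest in that library, while chek2, mdm2 and ccng1 were highest in it. Of the granulosa and theca markers 6 of 14 were lowest in mutant replicate 3, and of the stroma markers 1 of 11. The share of all genes lowest in that library was not counted, and the cause was not tested.

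**Figure D2:**
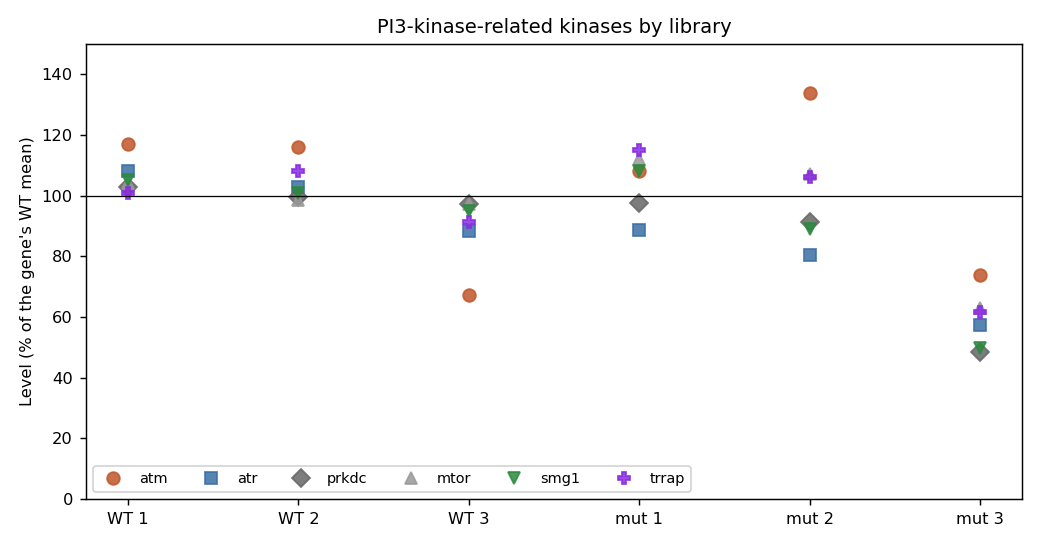
Level of the 6 PI3-kinase-related kinases in each library as a percent of the gene's mean in WT (line at 100%), with 1 symbol per gene. In mutant replicate 3 the 6 symbols lie between 48.4% and 73.8%, and in WT replicate 3 only atm is set apart, at 67.2%.

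The checkpoint kinase genes downstream of them differed little. The level of chek1 (ENSDARG00000104765), the target of Atr, was 47.2, 50.1 and 52.1 CPM in WT and 44.7, 42.6 and 43.9 CPM in mutant replicates 1, 2 and 3. Each mutant library lay below each WT library, by a small margin. It differed by a log2 fold change of -0.19 (SE 0.092, 95% CI -0.40 to 0.03, edgeR adjusted p = 0.31). The gene chek2 (ENSDARG00000025820), the target of Atm, had 85.6, 86.2 and 88.8 CPM in WT and 81.6, 88.2 and 108 CPM in the mutant. The WT libraries lay close together and inside the range of the mutant, whose replicate 3 was the highest. Its log2 fold change was 0.09 (SE 0.11, 95% CI -0.17 to 0.36, edgeR adjusted p = 0.71).

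Around these kinases stand sensors, adaptors and other partners in the response to damaged DNA. A list of 30 such genes was tested, which includes the 4 kinases and prkdc. One of them was called, mdc1 (ENSDARG00000086764), whose product binds the damage mark on histone H2AX, and it fell. It had 75.3, 75.7 and 80.2 CPM in WT and 57.1, 58.5 and 46.1 CPM in mutant replicates 1, 2 and 3, without overlap. On the log2 scale the change was -0.52 (SE 0.11, edgeR adjusted p = 0.049). This call sits at the threshold. It was lost on leaving out any 1 library (edgeR adjusted p between 0.054 and 0.14) and with total-count scaling (edgeR adjusted p = 0.092), and it held under 4 of the 9 alternatives of scaling, filter or model. The gene mre11 (ENSDARG00000105014), a nuclease subunit that recruits Atm to breaks, went the other way, with 27.2 ± 2.16 CPM in WT and 35.5 ± 3.51 CPM in the mutant (SD, n = 3). Its log2 fold change was 0.38, and it was not called (edgeR adjusted p = 0.15). Of the 30 genes 18 were lower and 12 higher, with a median log2 fold change of -0.11 (-0.15 to -0.06 with 1 library left out), which became -0.03 with total-count scaling.

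The p53 relative tp63 (ENSDARG00000044356) had 5.52, 6.45 and 2.87 CPM in WT and 4.30, 3.31 and 2.76 CPM in mutant ovaries. WT replicate 3 lay within the range of the mutant. The log2 fold change of -0.52 had a wide error (SE 0.37, 95% CI -1.38 to 0.35, edgeR adjusted p = 0.49), and it was -0.29 without WT replicate 2 and -0.79 without WT replicate 3. Counts per gene cannot separate the full-length p63 form, which acts in mouse oocytes, from the short form of skin. The gene mdm2 (ENSDARG00000033443), the ubiquitin ligase that holds p53 down and is itself a p53 target, had 64.9, 58.6 and 64.6 CPM in WT and 61.4, 60.4 and 72.4 CPM in the mutant, and the genotypes overlapped. Its log2 fold change was 0.05 (SE 0.11, 95% CI -0.20 to 0.29, edgeR adjusted p = 0.86).

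The third member of the p53 family, tp73 (ENSDARG00000017953), was counted in WT only. WT libraries held 50, 41 and 58 counts of it, and each mutant library held 0. The WT mean was 0.634 CPM, at least 4.21-fold above the level of 12 counts per library in the mutant. It was called as lower (edgeR adjusted p = 0.018), and without 1 of the WT libraries the adjusted p was 0.054 to 0.07. If a fragment stands for about 4 counts, few fragments per WT library lie behind this gene.

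In the list of the p53 family and its regulators, 2 of 23 tested genes were called, tp73 and csnk1e (ENSDARG00000045150), both lower in the mutant. The gene csnk1e encodes a casein kinase 1, a family that in mouse oocytes completes the activation of p63 after Chek2. It had 8.41, 9.38 and 7.96 CPM in WT and 4.31, 4.38 and 3.96 CPM in mutant replicates 1, 2 and 3. The libraries of each genotype lay close together and the genotypes did not overlap. The log2 fold change was -1.02 (SE 0.21, edgeR adjusted p = 0.039). With total-count scaling the adjusted p was 0.052, and on leaving out 1 library it ran from 0.088 to 0.11. The call held under 6 of the 9 alternatives of scaling, filter or model (DESeq2 adjusted p = 3.1e-05). The related csnk1da and csnk1d (ENSDARG00000006125) had log2 fold changes of -0.16 and -0.07 and were not called. One of the genes listed as CREBBP (ENSDARG00000112452), a histone acetyltransferase that also acts on p53, was at -0.65 on the log2 scale (SE 0.23, adjusted p = 0.18 with edgeR and 0.044 with DESeq2). It had 153, 132 and 137 CPM in WT and 100, 113 and 56.5 CPM in the mutant, without overlap. DESeq2 called 3 genes of the list, tp73, csnk1e and this one. The list had 14 genes lower and 9 higher, with a median log2 fold change of -0.09 (-0.17 to -0.04 with 1 library left out).

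Among the p53 targets, cdkn1a (ENSDARG00000076554) had the largest log2 fold change of the members. Its product, p21, blocks cyclin-dependent kinases and is the classical brake set by p53. WT replicates 1, 2 and 3 had 113, 99 and 116 counts (1.52, 1.31 and 1.38 CPM). Mutant replicates 1, 2 and 3 had 390, 104 and 319 counts (4.68, 1.36 and 4.02 CPM). The WT libraries were within 1.16-fold of each other, while mutant replicate 2 lay at the WT level and the other mutant libraries stood about 3-fold above it, a 3.44-fold spread within the mutant. The fitted log2 fold change was 1.26 (SE 0.48, 95% CI 0.13 to 2.39, adjusted p = 0.20 with edgeR and 0.089 with DESeq2). Without mutant replicate 2 it was 1.62 with an adjusted p of 0.069, and it was called under none of the 15 alternatives.

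The mutant libraries that were high in cdkn1a were also high in stroma and immune genes. The 11 stroma markers summed to 54.5, 36.9 and 125 CPM in WT and to 226, 38.2 and 116 CPM in mutant replicates 1, 2 and 3. The 10 immune markers summed to 30.2, 43.8 and 89.7 CPM in WT and to 130, 41.6 and 116 CPM in the mutant. Of these, 8 of 11 stroma and 9 of 10 immune markers were higher in mutant replicates 1 and 3 than in mutant replicate 2. In 6 of 11 stroma and 5 of 10 immune markers, mutant replicates 1 and 3 lay above all WT libraries, as in cdkn1a. This order was taken from cdkn1a, and its share over all genes was not counted. No marker of either list was at 0 throughout. WT replicate 3 had more summed stroma signal than mutant replicate 3 and a cdkn1a level of 1.38 CPM. The part of these cells in the level of cdkn1a was not tested. None of the stroma or immune markers was called by edgeR (2 in each list had an unadjusted p under 0.05, and DESeq2 called 1 and 0), and their median log2 fold changes were 1.01 and 0.81. Single libraries moved these medians, to 0.35 and 0.27 without mutant replicate 1 and to 1.98 and 1.41 without WT replicate 3. The 9 blood markers summed to 4.49 to 17.6 CPM in WT and 4.59 to 7.09 CPM in the mutant, and gata1a was at 0. The 14 granulosa and theca markers summed to 120 to 144 and 124 to 134 CPM. Abundant genes moved in opposite directions within this sum, cyp17a1 from 60.0 to 84.6 CPM and hsd3b2 from 41.5 to 20.7 CPM. Of the 13 tested markers 4 were higher and 9 lower in the mutant. Their median log2 fold change was -0.28 (-0.66 to -0.05 with 1 library left out). In the blood list and the granulosa and theca list, no gene was called by edgeR, with 0 and 2 genes at an unadjusted p under 0.05 and 0 and 2 called by DESeq2.

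**Figure D3:**
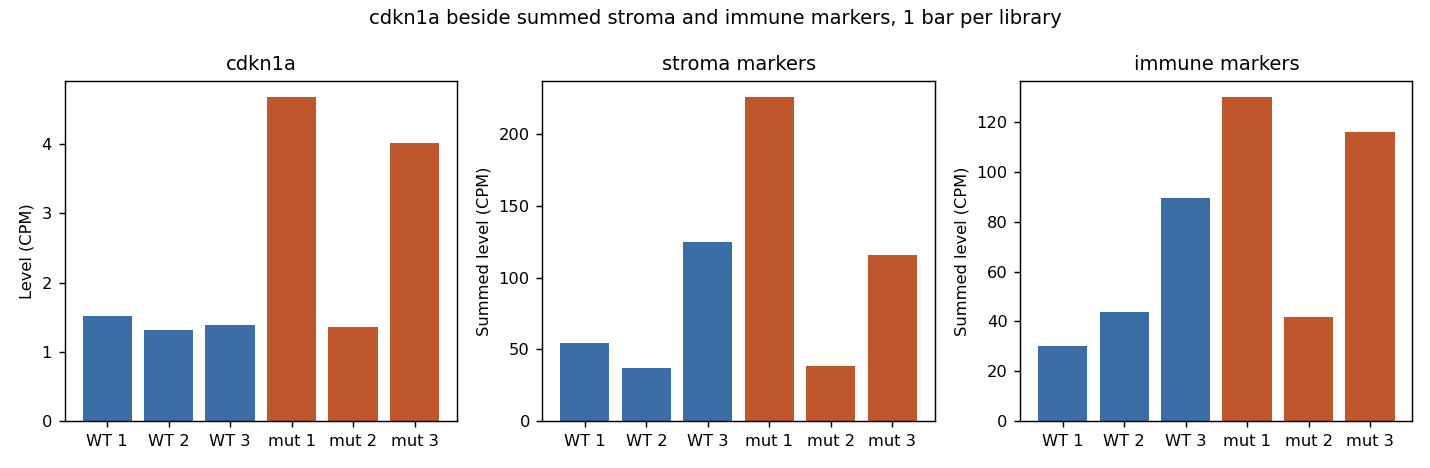
Level of cdkn1a (left) and summed level of the 11 stroma (middle) and 10 immune markers (right) in CPM, with 1 bar per library (WT blue, ddx4-L mutant orange) and axes from 0. Mutant replicates 1 and 3 are high in the 3 panels and mutant replicate 2 is not, while WT replicate 3 has raised markers (125 and 89.7 CPM) with cdkn1a at 1.38 CPM.

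The list of Cip/Kip and INK4 inhibitors of cyclin-dependent kinases, cdkn1a included, held 10 genes, of which 8 were tested and none was called, with 2 at an unadjusted p under 0.05 and 0 called by DESeq2. It also counts CDKN2AIP and CDKN3, which belong to neither family and had log2 fold changes of 0.04 and 0.01. The first CDKN1B gene (ENSDARG00000054271), which encodes a p27 type of inhibitor, had 41.0, 33.9 and 37.8 CPM in WT and 39.7, 50.1 and 54.8 CPM in the mutant, where replicate 1 was the lowest. Its log2 fold change was 0.36 (edgeR adjusted p = 0.23). The second CDKN1B gene (ENSDARG00000029018) had a log2 fold change of -1.15 at about 1 CPM in WT (edgeR adjusted p = 0.52), and cdkn1ca one of 0.31 (adjusted p = 0.70). The low gene CDKN2C (ENSDARG00000057610) had 17, 3 and 0 counts in WT and 42, 15 and 35 counts in the mutant, with overlap, and was not called (edgeR adjusted p = 0.41). The log2 fold change of CDKN2D was 0.01 (edgeR adjusted p = 0.99). The genes cdkn1cb and cdkn2a/b were at or near 0.

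Cyclin G1 (ccng1, ENSDARG00000076667), a p53 target that feeds back on Mdm2, had the smallest p of the members. It had 415, 428 and 450 CPM in WT and 475, 525 and 605 CPM in mutant replicates 1, 2 and 3. Each mutant library lay above each WT library, and the spread within the mutant (1.27-fold) was as wide as the difference of the means (1.24-fold). Its log2 fold change was 0.31 (SE 0.11, 95% CI 0.05 to 0.57, edgeR adjusted p = 0.17). Total-count scaling moved the median over all genes from 0.014 to 0.096 on the log2 scale, and ccng1 was then at 0.39 with an adjusted p of 0.061. Its relative ccng2 (ENSDARG00000017602) had a log2 fold change of -0.17 and was not called (edgeR adjusted p = 0.76).

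The genes with the profile most similar to ccng1 over the 6 libraries were looked up among 14202 others with a mean of at least 1 CPM. The closest by Pearson's r on log2 CPM were ccnh (r = 0.995), which encodes the cyclin of the CDK-activating kinase, uqcc1 (r = 0.994), a respiratory complex assembly factor, abt1 (r = 0.991), psma4 (r = 0.989), a proteasome subunit, and ENSDARG00000115962 (r = 0.989). In all, 117 genes had r over 0.95 over these 6 libraries. None of the 5 genes was called, and the level of ccnh, like that of ccng1, was highest in mutant replicate 3, at 119 CPM against 70.7 to 77.1 CPM in WT.

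The Gadd45 proteins are small stress sensors that bind p21, Pcna and upstream kinases of the p38 pathway. Of the GADD45A genes, ENSDARG00000104571 had 5.40, 2.09 and 2.91 CPM in WT and 8.56, 5.03 and 5.66 CPM in mutant ovaries. Only WT replicate 1 reached into the range of the mutant. The log2 fold change was 0.89 (SE 0.41, 95% CI -0.07 to 1.85, edgeR adjusted p = 0.28), and it ran from 0.62 to 1.36 with 1 library left out. The other, ENSDARG00000043581, had 19, 10 and 46 counts in WT and 23, 23 and 29 counts in the mutant. At 0.132 to 0.546 CPM it lay close to the level of 12 counts, so its log2 fold change of 0.01 (SE 0.69, edgeR adjusted p = 1) says little at this depth.

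The smallest adjusted p in the pathway lists was in the same family. A gene listed as GADD45G (ENSDARG00000019417) had 18.5, 19.1 and 18.6 CPM in WT and 45.6, 47.3 and 49.6 CPM in mutant replicates 1, 2 and 3. The libraries of each genotype were nearly equal and the genotypes lay far apart, also in mutant replicate 2, which was at the WT level for cdkn1a. On the log2 scale the change was 1.34 (SE 0.10, edgeR adjusted p = 0.0012). The call held on leaving out any 1 library (log2 fold change 1.31 to 1.37, edgeR adjusted p 0.0049 to 0.011) and under the 9 other alternatives. In mammals GADD45G is a stress gene that is less tied to p53 than GADD45A. Of the 7 tested genes of the list it was the only one called by edgeR, and 1 of the 7, GADD45GIP1, is a partner of Gadd45 proteins and no Gadd45 gene (log2 fold change 0.04). The GADD45B genes went in opposite directions, with ENSDARG00000027744 at 11.4 ± 3.90 CPM in WT and 22.6 ± 3.18 CPM in the mutant and ENSDARG00000013576 at 2.22 ± 0.588 and 1.12 ± 0.462 CPM (SD, n = 3). In both the genotypes did not overlap, and neither was called (log2 fold changes 0.98 and -0.99, edgeR adjusted p = 0.088 and 0.27). DESeq2 called the first of them (adjusted p = 0.0045). Of the other GADD45G genes, ENSDARG00000113103 had 0.581 ± 0.24 CPM in WT and 0.881 ± 0.12 CPM in the mutant (edgeR adjusted p = 0.54) and ENSDARG00000016725 was at or near 0 and not tested. How reads shared by such paralogs were counted is not given in the sources used here.

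**Figure D4:**
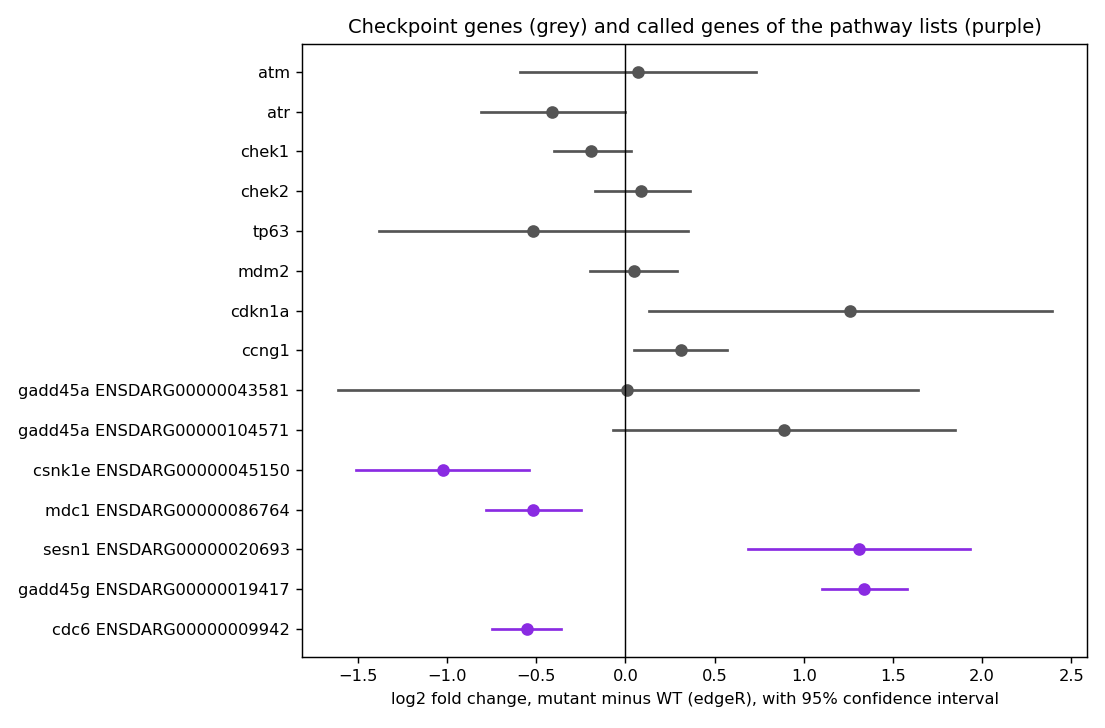
Log2 fold change between ddx4-L mutant and WT ovaries with its 95% CI from edgeR's fit, for the 10 checkpoint genes (grey) and for the called genes of the pathway lists (purple, tp73 left out because it had no counts in the mutant). The intervals of cdkn1a (0.13 to 2.39) and ccng1 (0.05 to 0.57) lie above 0 without adjustment for the number of genes, and gadd45g at 1.34 has a short interval.

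The wider list of genes taken as p53 targets held 38 tested genes, and 1 was called. It includes the genes listed as RRM2, which are also counted among the proliferation genes and had log2 fold changes of 0.04 and -0.15. The called gene was sesn1 (ENSDARG00000020693), a sestrin that curbs growth signalling after stress. Its level was 5.43, 10.1 and 8.55 CPM in WT and 23.2, 16.2 and 20.1 CPM in mutant ovaries, without overlap. It rose by a log2 fold change of 1.31 (SE 0.26, edgeR adjusted p = 0.039). The call was lost on leaving out any 1 library, with an edgeR adjusted p from 0.051 to 0.12. It held under 8 of the 9 alternatives of scaling, filter or model (DESeq2 adjusted p = 3.5e-05). Its relatives sesn2 and sesn3 had log2 fold changes of 0.17 and 0.58 and were not called. DESeq2 called 4 of the 38, beside 11.1% of all genes to which it gave an adjusted p. The 4 were sesn1, polk, pmaip1 and a gene listed as TP53I11 (ENSDARG00000069430). The last 3 are named because of that call, after their values were seen. The gene pmaip1 (ENSDARG00000089307) encodes Noxa, a death effector of p63 in mouse oocytes, and had 63.3, 30.7 and 45.4 CPM in WT and 69.7, 77.3 and 74.7 CPM in the mutant. The WT libraries were scattered and the mutant libraries close together, and the log2 fold change was 0.67 (adjusted p = 0.17 with edgeR and 0.049 with DESeq2). For polk (ENSDARG00000059963), a DNA polymerase that passes over damaged bases, the log2 fold change was 0.84 (adjusted p = 0.073 and 0.0028), and for ENSDARG00000069430 it was -0.54 (adjusted p = 0.13 and 0.017). Of the 38 targets 23 were higher and 15 lower, with a median log2 fold change of 0.07 (0.02 to 0.17 with 1 library left out). With total-count scaling 31 were higher and 7 lower, beside the shift of all genes given above.

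The genes that the checkpoint kinases act on to hold the cell cycle, such as the Cdc25 phosphatases, Wee kinases and cyclins, were without a call among 18 tested (3 with an unadjusted p under 0.05, 1 called by DESeq2). Without WT replicate 1, with robust dispersion or with counts divided by 4, edgeR called 1 of them. The DESeq2 call was ccna1 (ENSDARG00000043236), a cyclin of germ cells, with 855, 1152 and 1073 CPM in WT and 609, 701 and 705 CPM in the mutant. The genotypes did not overlap, and its log2 fold change was -0.61 (SE 0.14, edgeR adjusted p = 0.052). For cdc25d (ENSDARG00000075599) the log2 fold change was 1.61 at 0.199 to 2.89 CPM (edgeR adjusted p = 0.22), and for ccnb3 it was -0.31 (adjusted p = 0.37).

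Of 14 tested genes of meiotic quality control, csnk1e, described above, was the one called by edgeR, and DESeq2 called csnk1e and spo11. The largest log2 fold change was 1.47 for spo11 (ENSDARG00000013837), which makes the meiotic double-strand breaks, with 3.34, 3.38 and 7.77 CPM in WT and 13.8, 12.1 and 14.2 CPM in the mutant (adjusted p = 0.069 with edgeR and 0.00064 with DESeq2). The genotypes did not overlap in spo11.

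Dividing cells keep high levels of checkpoint kinases, so proliferation genes were counted beside them. In whole ovaries the counts cannot tell transcripts of dividing cells from the same transcripts held in oocytes. Their levels are therefore no measure of the number of dividing cells. Of 20 tested, 1 was called, cdc6 (ENSDARG00000009942), which licenses replication origins. It fell from 241, 212 and 239 CPM in WT to 150, 163 and 158 CPM in the mutant, without overlap. In log2 terms the difference was -0.55 (SE 0.085, edgeR adjusted p = 0.015), and with 1 library left out the call was kept in 2 of 6 fits (adjusted p 0.034 to 0.065). The proliferation marker mki67 had a log2 fold change of -0.56 (adjusted p = 0.11 with edgeR and 0.021 with DESeq2) and e2f1 one of -1.04 (adjusted p = 0.43), set by a single high WT library at 5.16 CPM. DESeq2 called 3 of the 20, cdc6, mki67 and mcm7, a helicase subunit of the replication origin that is named for this call, after its values were seen. It called 11.1% of all genes to which it gave an adjusted p. Of the 20 genes 16 were lower and 4 higher. Their median log2 fold change was -0.09, which became -0.02 with total-count scaling. The summed level of these genes was 8308 to 8440 CPM in WT and 6843 to 8209 CPM in mutant ovaries (exact permutation test, two-sided, n = 3, p = 0.1, the smallest p possible). Among the 7 tested early meiotic and germ stem cell markers, sycp1 (ENSDARG00000003904), a part of the synaptonemal complex that pairs meiotic chromosomes, fell from 20.5 ± 2.68 CPM in WT to 0.805 ± 0.0791 CPM in the mutant (SD, n = 3, edgeR adjusted p = 0.00015). With the untested ones, the 11 markers of this list summed to 25.9 to 32.1 CPM in WT, mostly sycp1. In the mutant they summed to 18.4 to 19.1 CPM (exact permutation test, two-sided, n = 3, p = 0.1). Not every marker of the list fell. Of the 7 tested markers 3 were higher and 4 lower, and their median log2 fold change was -0.64 (-1.08 to -0.29 with 1 library left out). Besides sycp1, the lower ones were sycp3, smc1b and sycp2, with log2 fold changes of -3.45, -1.26 and -0.64. None of these 3 was called by edgeR (adjusted p = 0.12, 0.17 and 0.53), and sycp3 had no more than 8 counts in any mutant library. The mean of spo11 rose from 4.83 CPM in WT to 13.3 CPM in the mutant. In the same list foxl2l (ENSDARG00000008010), a gene of early female germ cells, rose from 0.294 ± 0.15 to 1.97 ± 0.794 CPM (SD, n = 3, edgeR adjusted p = 0.039). DESeq2 called sycp1 and foxl2l along with spo11 and sycp3. Of the 14 growing oocyte markers gdf9 (ENSDARG00000003229), an oocyte growth factor, was the one called by edgeR and had 76.5, 66.5 and 69.0 CPM in WT and 38.8, 39.9 and 41.3 CPM in the mutant (edgeR adjusted p = 0.0064). The oocyte list as a whole had 6 markers higher and 8 lower, with a median log2 fold change of -0.19, and DESeq2 called 2 of it, gdf9 and zp2.2. The genes sycp2 and smc1b are named as the remaining tested early meiotic markers that fell. The other genes are named because they were called. In both cases the values had been seen. The part of such shifts in the levels of the checkpoint genes was not tested.

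Over the 9 pathway lists together, 6 of 150 genes were called (4%, beside 4.57% of all genes tested), and in 45 of them (30%, beside 28.4%) the genotypes did not overlap. DESeq2 called 15 of the 153 genes of these lists to which it gave a p, beside 2365 of 25750 such genes in all.

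**Figure D5:**
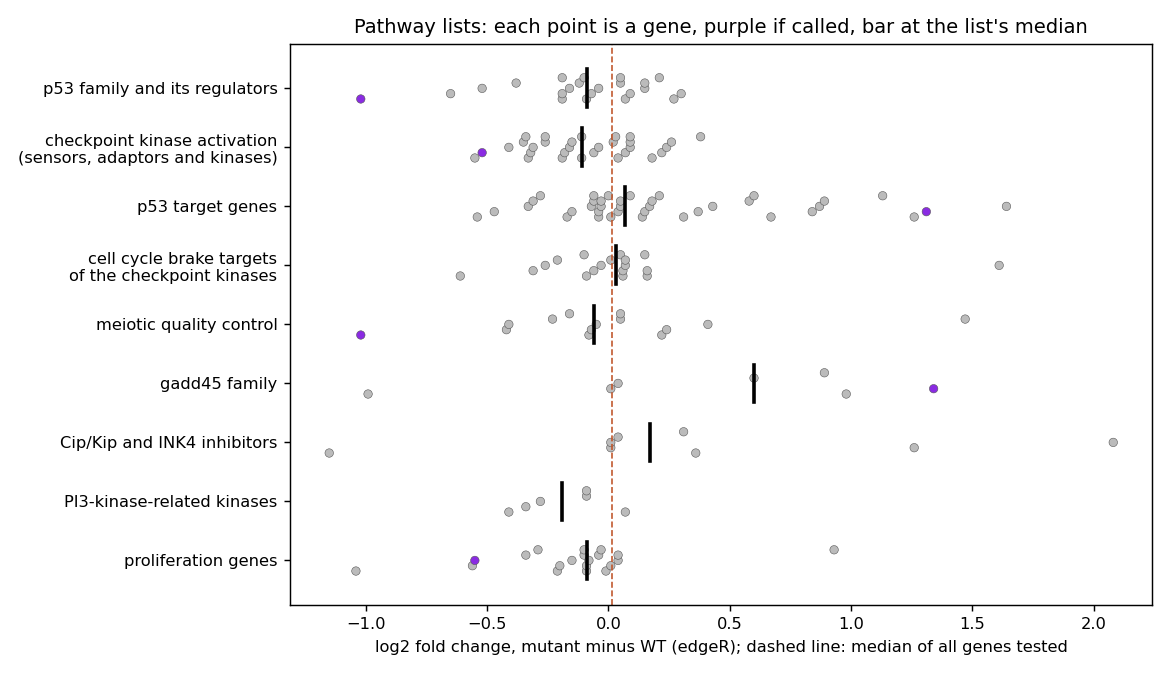
Log2 fold change (horizontal axis, edgeR) of each tested gene in the 9 pathway lists, purple where called, with a black bar at the median of each list and a dashed line at the median of all genes tested, 0.014. Most genes lie near the dashed line, the medians run from -0.19 to 0.60, and tp73 is left out because it had no counts in the mutant.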

How the data were processed

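RNA of ovaries was sequenced in 3 WT and 3 ddx4-L mutant libraries. According to the paper's methods, reads were trimmed with Cutadapt, mapped to GRCz11 with STAR and counted with featureCounts, whereas the submitters' processing notes name HISAT2, StringTie and RSEM. The authors deposited whole numbers per Ensembl gene without scaling, which are treated here as estimated counts because their sum exceeds the number of reads. Strand and multi-mapping settings are not given in the sources used here.

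Symbols came from a table of gene names, which matched 29200 of 32519 genes. Genes were filtered with filterByExpr, scaled by TMM and tested with edgeR 4.0.16 in R 4.3.3 (quasi-likelihood, genotype only), with Benjamini-Hochberg adjustment over all tested genes. DESeq2 1.42.0, other scalings and filters, robust dispersion, a replicate block, counts divided by 4 and leaving out each library were the alternatives. Confidence intervals are 95% and use the fit's standard error.

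The members and lists were chosen with earlier results of these data known. Named are all members and their paralogs in the p53, Gadd45, Cip/Kip and PI3-kinase-related kinase families. Also named are every called gene of a pathway list and its 3 largest log2 fold changes at a mean of at least 1 CPM. A gene that this rule names in the meiotic list is not reported here. The test of the marker sums and depths was the exact permutation test. Figures were drawn with matplotlib 3.10.9.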

Additional observations from a re-analysis of the deposited data

How the results depend on the processing

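None of the 10 checkpoint genes was called under any of the 15 alternatives. The number of genes called, 884, became 2365 with DESeq2 and 325 with the replicate block, and lay between 380 and 553 with 1 library left out. The 6 called genes of the pathway lists became 15 with DESeq2 and 2 with the replicate block, and 2 to 3 with 1 library left out. The causes of these moves were not tested. The fits with 1 library left out also rest on fewer libraries. Whether equal replicate numbers pair the libraries was not settled. The deviations of WT and mutant libraries with the same number from their genotype means had correlations of -0.0741, 0.0826 and -0.0176. Those with unlike numbers ran from -0.138 to 0.174. With 3 libraries per genotype such values cannot exclude a shared origin. With 1 library left out, the sign of small log2 fold changes turned for mdm2 (-0.04 to 0.08), chek2 (-0.03 to 0.17), atm (-0.15 to 0.27) and gadd45a ENSDARG00000043581 (-0.35 to 0.69), and the last was -0.02 with upper-quartile scaling. The other 6 members kept their direction under all alternatives. After division by 4, tp73 and gadd45a ENSDARG00000043581 had too few counts to be tested. Depth limits both of these genes, and cdkn1a in WT rests on 99 to 116 counts. If a fragment stands for about 4 counts, fewer fragments than that lie behind cdkn1a in WT.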
